A study of Mus musculus with 2 samples.

Results

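The collagen chain genes of the mouse were followed in cultured dermal cells after loss of β-catenin transcript. A gene was a member if its symbol is Col, a number, the letter a and a number, as in Col1a1. This rule found 44 genes among the 19938 genes with a single-symbol probe set, and every collagen chain gene of that form in the mouse RefSeq table was among them. The cells came from dorsal skin of C57BL/6 pups on postnatal day 0, were kept for 24 h in medium with 10% fetal bovine serum, and were then transfected with control siRNA (1 array) or with β-catenin siRNAs (1 array), each at 10 nM for 48 h. An siRNA is a short duplex RNA that leads to cleavage of a matching transcript. The cells were a dermal preparation with no sort named in the labels, both groups were transfected, and neither the sequences of the siRNAs nor the number of pups or cultures behind an array is given in the labels. With 1 array per group, each difference reported here is 1 subtraction without replicate error, and no p-value or SD is attached to it.

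Collagens are the main structural proteins of the dermis. Each molecule is a triple helix of 3 chains that may come from the same gene or from different genes, and every chain carries long stretches of a regular glycine repeat. The fibrillar collagens, led by types I, III and V, form the banded fibres that give skin its strength. Type IV builds the sheets of basement membranes, type VI forms beaded filaments around cells, the FACIT collagens (fibril-associated collagens with interrupted triple helices) sit on the surface of fibrils, type VIII forms hexagonal networks, and the transmembrane collagens span the plasma membrane. β-catenin works both at adherens junctions and as the partner of TCF/LEF transcription factors in canonical Wnt signalling.

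Values are log2 RMA values as deposited by the authors. RMA (robust multi-array average) equalises the distributions of the arrays, so every difference is relative to the rest of the transcripts. A gene was kept if the higher of its 2 values reached 5.13 on the log2 scale (the median over genes of the 2-array mean), and 10197 genes were kept. Of the 44 collagen genes, 33 were kept, and all 33 were at or above that level on both arrays, so none was kept through 1 array alone. The target itself, Ctnnb1, went from 10.48 in control to 9.34 after β-catenin siRNA, which is 45.2% of the control signal. Across all kept genes the median difference (β-catenin siRNA minus control siRNA) was -0.018 and the central 95% of differences lay between -0.54 and 0.62.

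Most collagen genes had similar values on the 2 arrays. Only Col8a2, which encodes the α2 chain of the network-forming type VIII collagen, was at least 1.5-fold different, at 2.03-fold higher. That is 1 of 33 kept members past 1.5-fold upward, against 2.76% of all kept genes. No collagen gene was at least 1.5-fold lower, against 1.84% of all kept genes, and Col8a1, the partner chain of Col8a2, stood just inside that limit at 1.49-fold lower. At 1.25-fold, a size chosen after the values were seen, 3 kept members were higher (Col8a2, Col5a3 and Col18a1), or 9.09%, against 8.45% of all kept genes, and 3 were lower (Col8a1, Col11a1 and Col4a5), again 9.09%, against 9.38%. These shares are close to those of the array as a whole. By any amount, 20 of the 33 kept members were higher, or 60.6%, against 45.8% of all kept genes, and the members' median difference was 0.069. With the level filter at the 75th percentile, 8 of 15 members were higher, against 44.1% of genes, and their median was 0.0013. In RNA from a mixed culture, fewer cells of a type and less RNA per cell cannot be told apart.

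**Figure D1:**
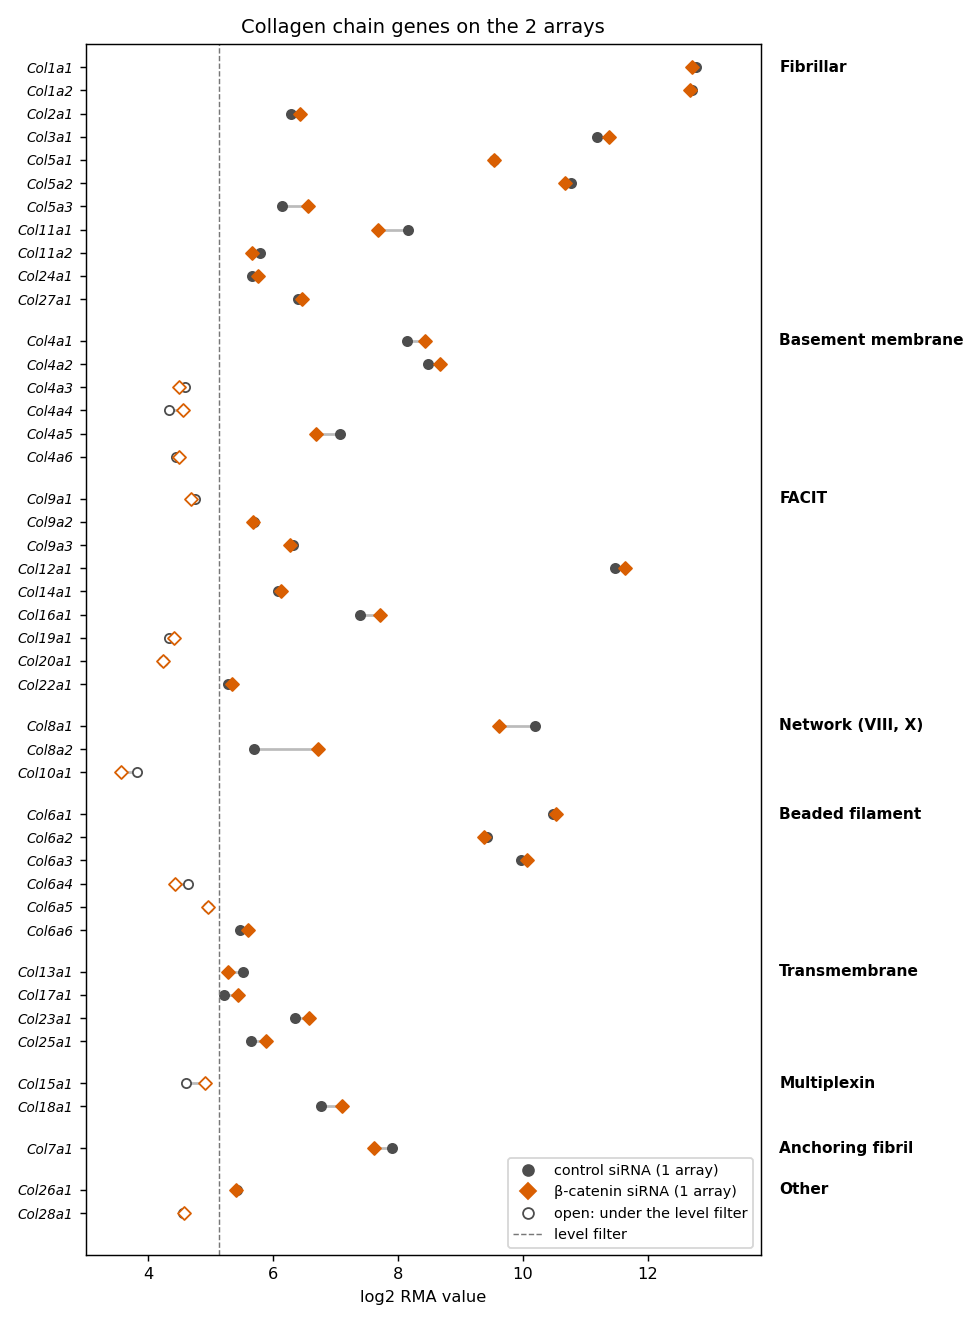
The log2 RMA value (horizontal axis) of each of the 44 collagen chain genes is plotted for the control siRNA array (grey circles) and the β-catenin siRNA array (orange diamonds), grouped by collagen class; open symbols are the 11 genes under the level filter of 5.13, drawn as a dashed line. The symbols lie close together for Col1a1, Col1a2 and the type VI chains, and the longest line is that of Col8a2, from 5.70 to 6.72.

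Upstream sequences are given for 6 chains because they span the range of responses: the chain with the largest positive and the chain with the largest negative difference (Col8a2 and Col8a1), the next kept chain in each direction (Col5a3 and Col11a1), and a pair of main dermal fibrillar chains with small differences (Col1a2 and Col3a1). They are the bases before the annotated start that lie outside the gene model, from RefSeq on GRCm38.p6, written 5′ to 3′ on the gene's own strand. Capitals mark matches on either strand to CCAAT, the box bound by the factor NF-Y, or to TATAAA, the core of the TATA box. Matches to the TCF/LEF words CTTTGAA or CTTTGAT or CTTTGTA or CTTTGTT were searched as well and would also be in capitals.
Col8a2 (chr4:126286544-126286793, plus strand): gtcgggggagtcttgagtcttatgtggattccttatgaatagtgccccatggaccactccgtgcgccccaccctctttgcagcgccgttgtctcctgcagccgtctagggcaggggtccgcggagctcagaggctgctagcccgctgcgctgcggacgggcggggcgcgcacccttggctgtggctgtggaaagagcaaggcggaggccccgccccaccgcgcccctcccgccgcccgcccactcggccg
Col8a1 (chr16:57754738-57754987, minus strand): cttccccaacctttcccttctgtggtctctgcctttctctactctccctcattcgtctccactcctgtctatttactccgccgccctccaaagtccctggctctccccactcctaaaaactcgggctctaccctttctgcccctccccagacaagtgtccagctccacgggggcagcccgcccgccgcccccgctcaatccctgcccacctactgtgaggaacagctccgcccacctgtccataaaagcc
Col5a3 (chr9:20815118-20815317, minus strand): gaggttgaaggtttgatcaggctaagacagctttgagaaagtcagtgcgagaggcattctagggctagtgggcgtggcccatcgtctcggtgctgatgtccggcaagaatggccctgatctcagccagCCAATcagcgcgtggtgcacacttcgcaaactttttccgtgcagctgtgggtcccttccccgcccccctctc
Col11a1 (chr3:114030290-114030478, plus strand): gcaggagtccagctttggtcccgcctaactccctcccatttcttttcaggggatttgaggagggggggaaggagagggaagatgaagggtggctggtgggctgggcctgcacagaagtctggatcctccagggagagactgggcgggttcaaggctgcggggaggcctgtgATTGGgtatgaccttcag
Col1a2 (chr6:4505368-4505617, plus strand): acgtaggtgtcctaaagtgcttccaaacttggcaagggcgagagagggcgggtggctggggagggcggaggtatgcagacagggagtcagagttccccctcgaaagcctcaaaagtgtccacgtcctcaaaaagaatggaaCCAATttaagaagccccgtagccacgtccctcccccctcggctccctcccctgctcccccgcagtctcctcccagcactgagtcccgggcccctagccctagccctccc
Col3a1 (chr1:45311288-45311537, plus strand): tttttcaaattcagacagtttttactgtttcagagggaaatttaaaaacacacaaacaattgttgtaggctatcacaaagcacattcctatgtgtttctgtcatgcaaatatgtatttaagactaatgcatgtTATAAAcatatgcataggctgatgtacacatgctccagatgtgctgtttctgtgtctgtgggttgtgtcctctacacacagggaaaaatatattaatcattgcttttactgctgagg

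None of these 6 windows holds a TCF/LEF word, and the windows of Col8a2 and Col8a1 hold none of the 3 motifs. Col5a3, Col11a1 and Col1a2 each have 1 CCAAT match, and Col3a1 has 1 TATAAA match. G and C made up 70% of the Col8a2 window and 60.8% of the Col8a1 window, beside 62% for Col1a2 and 35.2% for Col3a1. The printed bases of Col5a3 (200) and Col11a1 (189) held 58% and 60.3%, and their whole windows of 250 bases held 62.8% and 62.4%. Over windows of 250 bases the median was 59% for collagen genes and 52.4% for all genes. Over the 38 windows of 250 upstream bases that the RefSeq table holds for 35 of the 44 genes, 7 had a TCF/LEF word (18.4%, against 14.8% of all 32851 windows), 5 had TATAAA (13.2%, against 12.4%) and 13 had CCAAT (34.2%, against 33.8%). The shares in collagen windows were thus near those in all windows. The 7 windows with a TCF/LEF word belong to Col13a1, Col15a1, Col20a1, Col28a1, Col6a2, Col9a1 and Col9a2, whose differences ran from -0.25 to 0.31. Of these, Col15a1 (at 0.31), Col20a1, Col28a1 and Col9a1 were under the level filter. The kept genes Col13a1, Col6a2 and Col9a2 differed by -0.25, -0.048 and -0.016. A match describes letters in a short window and is not evidence of binding, and a window without one says nothing of the factor. Overlapping words were counted once per position, and the genes without a window were Col1a1, Col2a1, Col4a3, Col5a2, Col9a3, Col12a1, Col14a1, Col22a1 and Col26a1.

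The type VIII chains had the largest differences of the family and lay on opposite sides of 0. Col8a2 (probe set 10508142) went from 5.70 in control to 6.72 after β-catenin siRNA, which differ by 1.02. Only 0.892% of all kept genes had a difference at least as high. Col8a1 (probe set 10440091), the α1 chain of type VIII collagen, went from 10.19 to 9.62, a difference of -0.57, and 2.05% of all kept genes were at least as low. As a guide to scale, the robust SD of the difference among the 500 kept genes nearest in level was 0.24 for Col8a2 and 0.19 for Col8a1. This guide mixes array noise, differences between cultures and any effect of the siRNAs. The gap between the differences of these chains was 1.59, so the ratio of Col8a2 to Col8a1 signal was 3.02-fold higher on the β-catenin siRNA array. Each chain was read by a single probe set. Col10a1, the hypertrophic cartilage collagen and the other short-chain network gene, was under the level filter at 3.81 and 3.56.

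The chains of the major dermal fibrils differed little. Col1a1 and Col1a2 encode the chains of type I collagen, the bulk of dermal protein. Col1a1 had values of 12.77 in control and 12.71 after β-catenin siRNA, and Col1a2 had 12.71 and 12.67. Their differences were -0.065 and -0.034. Col3a1, the type III chain that is prominent in young skin, went from 11.18 to 11.38, a difference of 0.20. Type V collagen sets the diameter of type I fibrils, and its chains were not alike. Col5a1 had 9.54 on each array (difference 0.0013), Col5a2 went from 10.77 to 10.67 (-0.10), and Col5a3, the chain found in a minor form of type V, went from 6.15 to 6.55. The Col5a3 difference of 0.40 was the second highest among kept collagens, and 5.55% of all kept genes were at least as high.

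The remaining fibrillar genes are best known from cartilage and bone. Col11a1, a chain of type XI collagen that is closely related to the type V chains, went from 8.16 to 7.68, a difference of -0.48, and 3.34% of all kept genes were at least as low. Its partner Col11a2 went from 5.80 to 5.66 (-0.14). Col2a1, the main cartilage chain, had 6.29 and 6.42 (0.13). Col24a1 and Col27a1, later additions to the fibrillar class, had differences of 0.090 and 0.074. Of the 11 fibrillar genes, all kept, 6 were higher (54.5%, against 45.8% of all kept genes) and 5 lower by any amount. Their median difference of 0.0013 had no settled direction, since it was -0.049 with the level filter at the 75th percentile.

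Sox9, the transcription factor that drives Col2a1 and Col11a2 in cartilage, was 2.61-fold higher, from 5.72 to 7.11, beside differences of 0.13 and -0.14 for those chains. Col9a2 and Col9a3, cartilage FACIT chains that accompany type II fibrils, differed by -0.016 and -0.055, and Col9a1 was under the level filter. Of 10 chondrocyte markers measured, only Sox9 was kept, and the aggrecan gene Acan (3.29 and 3.05) and the matrilin gene Matn1 (2.85 on each array) were far under the filter.

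The kept basement membrane chains went both ways. Type IV genes lie head to head in pairs that share a promoter region. Col4a1 and Col4a2, which form the common type IV trimer, were both higher, from 8.14 to 8.44 (difference 0.29) and from 8.48 to 8.68 (difference 0.20). In the RefSeq table their annotated starts lie 21 bases apart on opposite strands of chromosome 8. The Col4a2 start lies inside the annotated Col4a1 gene, so the 21 bases are an overlap of their 5′ ends and not a gap. Col4a5, a chain of the basement membranes of kidney, eye and skin, went the other way, from 7.06 to 6.69, a difference of -0.37, and 6.73% of all kept genes were at least as low. Its head-to-head neighbour Col4a6, whose start lies 1343 bases away on the X chromosome, was under the level filter at 4.44 and 4.50, as were Col4a3 (4.59 and 4.50) and Col4a4 (4.34 and 4.55), so the difference of Col4a5 has no kept partner beside it. With 3 kept genes, 2 higher and 1 lower, against 45.8% of all kept genes higher, the type IV median of 0.20 rests on Col4a2.

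Other collagens of the basement membrane zone gave differences of either sign. Col18a1, whose product releases the anti-angiogenic fragment endostatin, went from 6.76 to 7.10, a difference of 0.34. Col15a1, the other multiplexin and a close relative, differed by 0.31, but its values of 4.60 and 4.91 were under the level filter. Col7a1, the chain of the anchoring fibrils that tie the epidermis to the dermis, went from 7.90 to 7.61, a difference of -0.28. Col17a1, the transmembrane collagen of keratinocyte hemidesmosomes, went from 5.22 to 5.43 (0.21), close to the filter on each array. Most keratinocyte markers were also higher. Of 13 such markers measured, kept or not, 11 were higher, 1 lower and 1 equal by any amount. Among them 3 were at least 1.5-fold higher, led by Krt5 from 7.64 to 8.65. Over all 19938 genes, kept or not, 41.6% were higher by any amount and 2.23% at least 1.5-fold higher. The 7 kept markers were all higher, against 45.8% of all kept genes, and 3 of them passed 1.5-fold, against 2.76%. Epcam, 1 of the 7, reached the filter only on the β-catenin siRNA array (4.76 and 5.26), so it could only count as higher. The other 6 were over the filter on both arrays. Krt15, under the filter, was the lower marker, from 4.30 to 3.75. The mean log2 value of the 13 was 5.42 in control and 5.69 after β-catenin siRNA. Their part in the Col17a1 value was not tested.

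The FACIT genes that were kept had small differences with 1 larger exception. Col16a1, which associates with fibrillin microfibrils and small fibrils in skin, went from 7.39 to 7.71, a difference of 0.31. Col12a1, a fibril-surface collagen of dense connective tissue, went from 11.48 to 11.63 (0.15). Col14a1, its relative, had 6.08 and 6.12 (0.039), and Col22a1, a collagen of tissue junctions, had 5.27 and 5.34 (0.069). Of the 6 kept FACIT genes, 4 were higher and 2 lower, against 45.8% of all kept genes higher. Their median was 0.054, and it was 0.23 with the level filter at the 75th percentile. Col9a1, Col19a1 and Col20a1 were under the filter. Col20a1 had exactly the same value on each array, 4.24, as did 6.50% of all probe sets in the deposited table.

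The 4 kept chains of type VI collagen, the beaded filament around fibroblasts, were within 1.1-fold. Col6a1 went from 10.48 to 10.53 (difference 0.054), Col6a2 from 9.43 to 9.38 (-0.048) and Col6a3 from 9.97 to 10.06 (0.091). The chains that can take the place of Col6a3 were dim. Col6a6 was kept with 5.46 and 5.59 (0.12), whereas its other probe set had 3.95 and 3.84 (-0.11) and so pointed the other way. Col6a5 (4.95 on each array) and Col6a4 (4.63 and 4.43) were under the filter.

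Of the 4 transmembrane genes, all kept, 3 were higher, against 45.8% of all kept genes. Col23a1 went from 6.35 to 6.57 (difference 0.22) and Col25a1, which is best known from neurons, from 5.64 to 5.88 (0.24). Col13a1, a collagen of cell adhesion sites, went from 5.52 to 5.27 (-0.25). With Col17a1, the transmembrane median was 0.22. Each of the 4 differences was near the robust SD among the 500 kept genes nearest in level. That SD was 0.21 for Col23a1, 0.25 for Col25a1 and Col13a1, and 0.26 for Col17a1. The remaining genes, Col26a1 (5.41 and 5.40) and Col28a1 (4.55 and 4.58, under the filter), were nearly equal on the arrays.

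**Figure D2:**
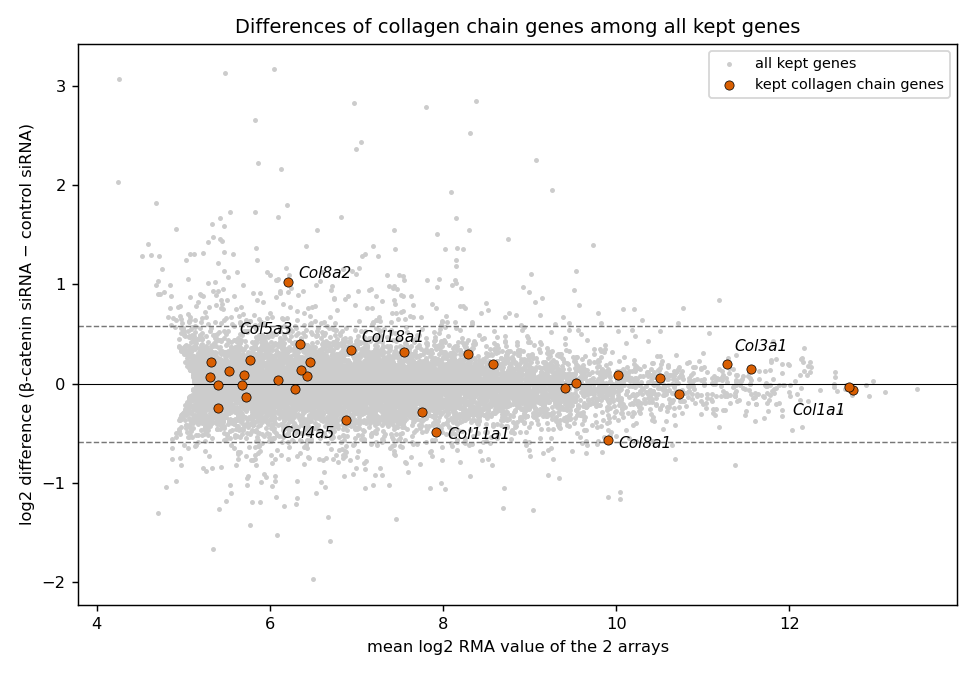
The log2 difference (vertical axis) is plotted against the mean log2 RMA value (horizontal axis) for all 10197 kept genes (grey) and the 33 kept collagen chain genes (orange); dashed lines mark 1.5-fold. Col8a2 at 1.02 is the only collagen gene outside the dashed lines, and Col8a1 at -0.57 lies just inside the lower one.

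Chains that are built into the same collagen type were set side by side for 11 pairs. In 6 pairs the differences were within 0.11 of each other, a limit chosen after the values were seen. These were Col1a1 with Col1a2, Col4a1 with Col4a2, Col5a1 with Col5a2, Col6a1 with Col6a2 and with Col6a3, and Col9a2 with Col9a3. Col5a1 stands in both type V pairs and Col6a1 in both type VI pairs. How often unrelated kept genes lie this close was not counted, so agreement of partner chains was not tested. For scale, kept genes in general had differences with a robust SD of 0.22. The gap was 0.40 for Col5a1 and Col5a3, 0.35 for Col11a1 and Col11a2, and 1.59 for the type VIII pair. The other pairs, Col4a3 with Col4a4 and Col4a5 with Col4a6, include chains under the level filter. For comparison, where a gene had several kept probe sets, their differences had a pooled SD of 0.16 (594 genes), a guide that leaves out differences between cultures.

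**Figure D3:**
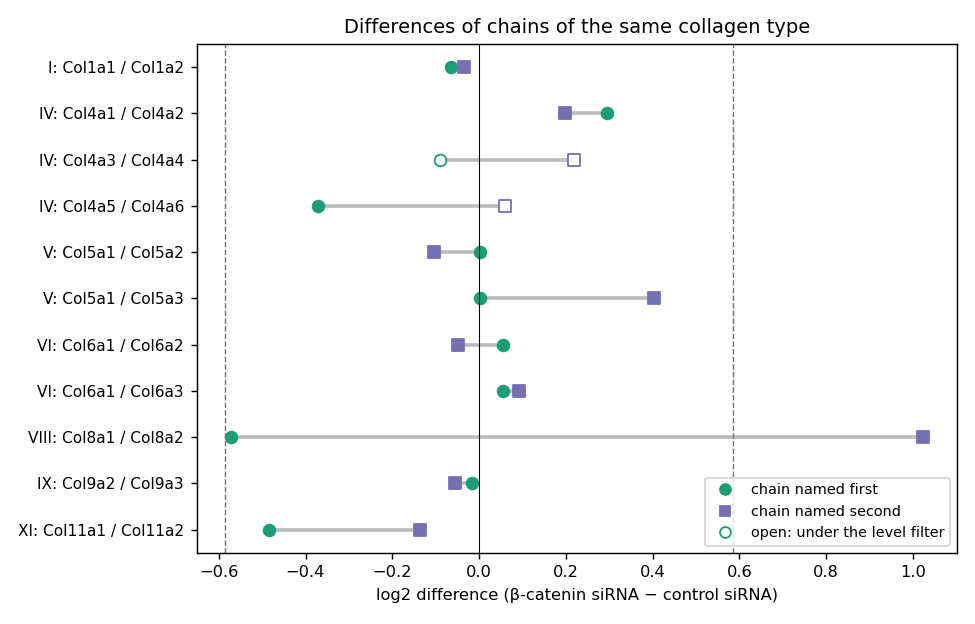
For 11 pairs of chains of the same collagen type, the log2 difference (β-catenin siRNA minus control siRNA, horizontal axis) of the chain named first is a green circle and that of the chain named second a purple square; open symbols are chains under the level filter and dashed lines mark 1.5-fold. The type VIII pair is the widest, from -0.57 to 1.02, and the type I pair lies within 0.031.

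Genes for collagen synthesis had similar values on the arrays. Of 19 kept genes for prolyl and lysyl hydroxylation and folding, none was 1.5-fold different, against 2.76% of all kept genes higher and 1.84% lower. By any amount 6 were higher (31.6%, against 45.8% of all kept genes) and 13 lower, and the median was -0.044. P3h4, a partner of the lysyl hydroxylase complex, differed by -0.29. Serpinh1, which encodes the collagen chaperone HSP47, differed by -0.29 as well, from 9.71 to 9.42. Plod1, a lysyl hydroxylase, differed by -0.20. None of 10 kept secretion genes was 1.5-fold different, which is again near the shares of all kept genes. Mia3, which encodes the procollagen export receptor TANGO1, differed by 0.13, the COPII coat gene Sec13 by -0.14 and Tfg, which organises COPII export sites, by -0.11. The secretion median of -0.011 changed sign with the centring of the differences.

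Among the kept genes for procollagen cleavage, cross-linking and fibril association, Loxl4, Lum and Dcn differed by more than 1.5-fold. Among 10 kept genes for procollagen cleavage and cross-linking, Loxl4, a lysyl oxidase, went from 7.53 to 6.67 and was 1.81-fold lower. No other member of this list passed 1.5-fold, against 2.76% of all kept genes upward and 1.84% downward. Tll1 and Adamts14, which encode procollagen proteinases, differed by 0.25 and 0.19, and the list's median was 0.056. Of 11 kept fibril-associated genes, 9 were higher with a median of 0.35, and 2 passed 1.5-fold upward, against 45.8% and 2.76% of all kept genes. The keratan sulfate proteoglycan gene Lum was 2.44-fold higher, the decorin gene Dcn, whose product binds type I fibrils, was 1.79-fold higher, and Prelp, another leucine-rich repeat protein gene, differed by 0.51. Col1a1 and Col1a2, the chains of the fibrils that these proteins coat, differed by less than 0.07.

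Receptors, proteases and regulators gave mixed values. Of 5 kept receptor genes none was 1.5-fold different, which is near the shares of all kept genes (2.76% higher and 1.84% lower). Itga1, the α1 integrin chain that binds type IV and type I collagen, went from 7.90 to 7.38 (-0.52), its β chain gene Itgb1 differed by -0.28, and Ddr1, a collagen-activated tyrosine kinase, by 0.30. The receptor median of 0.12 was -0.092 without the level filter. Of 13 kept degradation and uptake genes, 3 were at least 1.5-fold higher, against 2.76% of all kept genes. These were the gelatinase genes Mmp9 (2.57-fold) and Mmp2, named after its value was seen (1.52-fold), and the collagenase gene Mmp13 (2.22-fold), which passed the filter only on the β-catenin siRNA array, its control value being 4.18. Fap, a fibroblast surface protease, was 1.69-fold lower, to a value of 4.49 under the filter. Among 24 kept regulators of collagen genes, 2 were at least 1.5-fold lower, against 1.84% of all kept genes, and 1 that much higher, against 2.76%. The lower genes were Tgfb2 (1.70-fold) and Tgfb3 (1.53-fold). Both encode TGF-β ligands, which are well known to raise collagen I expression. Col1a1 and Col1a2 differed by -0.065 and -0.034, and a link to these ligands was not tested. The remaining ligand gene, Tgfb1, named after its value was seen, differed by 0.22, and Sox9, given above, had the largest difference of this list. The regulators' median was 0.035 and turned to -0.10 with the level filter at the 75th percentile.

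**Figure D4:**
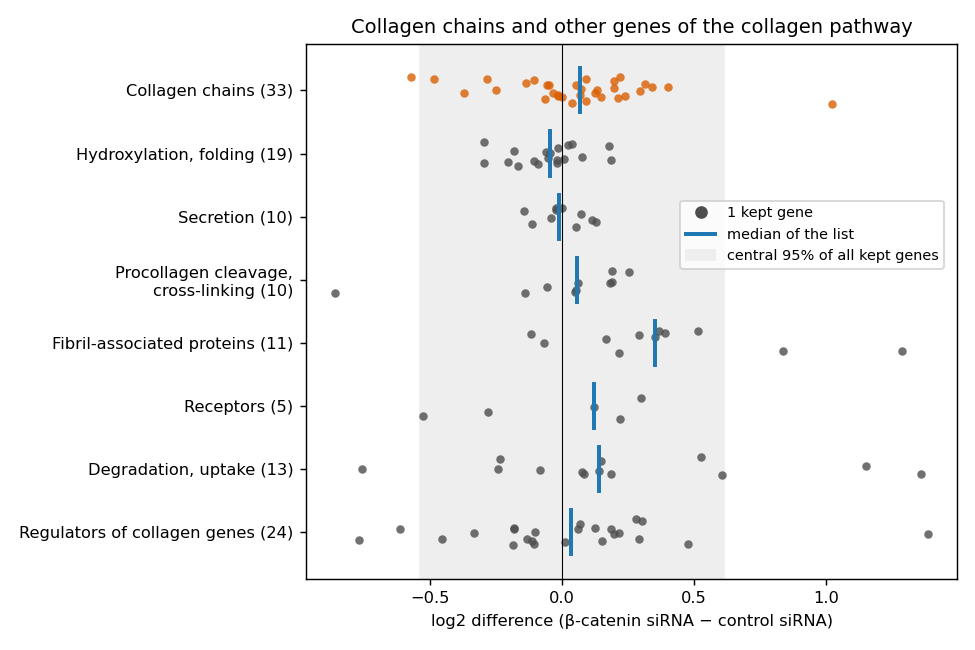
Each point is the log2 difference (β-catenin siRNA minus control siRNA, horizontal axis) of 1 kept gene, for the 33 collagen chains (orange) and 7 lists of other collagen pathway genes (grey), with the median of each list as a blue line and the central 95% of all kept genes as a grey band. The fibril-associated proteins have the highest median, 0.35, and of the collagen chains only Col8a2 (1.02, above) and Col8a1 (-0.57, just below) lie outside the band.

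The labelled cell type was checked against markers. All 11 dermal fibroblast markers, among them Pdgfra, Thy1 and Vim, were kept, and 4 were at least 1.5-fold higher (2.76% of all kept genes) and 1 that much lower (1.84%). That lower marker, Fap, was over the filter in control only (5.24 and 4.49). Of 9 pericyte and smooth muscle markers 5 were kept, with 2 at least 1.5-fold lower (1.84% of all kept genes), led by Cnn1 from 10.59 to 9.50. Of 9 endothelial and 10 macrophage markers, 1 each was kept, and each of these through 1 array alone. They were Kdr, over the filter in control only (5.34 and 4.82), and Lyz2, over it after β-catenin siRNA only (4.75 and 5.38). The endothelial markers Pecam1 (3.44 and 3.64) and Cdh5 (4.30 on each array) were under the filter. Of all 19938 genes, 10197 were kept. Of 8 measured Schwann cell and melanocyte markers 3 were kept, among them Pmel, over the filter in control only (5.34 and 5.07). None of the 8 skeletal muscle markers was kept. Whether a shift in the share of these cells took part in any collagen difference was not tested.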

How the data were processed

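The deposited table holds log2 RMA values, 1 per probe set and array, as the authors gave them. Per the submitters' processing notes, RMA was applied; neither its software and version nor a genome build is given in the sources used here. The log2 scale was judged from the range of the values (0.485 to 13.5). Precision is limited by having 1 array per group.

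Of 28944 probe sets, 21789 had 1 gene symbol in the platform annotation, 1621 had several and 5534 none; only the first were used. For 21698 of them the symbol was taken from RefSeq GRCm38.p6 by gene identifier, whether or not it differed from the annotated one. The other 91 kept the annotated symbol. For 999 genes with several probe sets, the one with the highest mean of both arrays was taken; 2 collagen genes (Col6a5 and Col6a6) had 2 probe sets. Differences are β-catenin siRNA minus control siRNA on the log2 scale, and sizes of 1.5-fold and 1.25-fold were counted without a test, beside the same counts over all kept genes. Robust SD is 1.4826 times the median absolute deviation, over kept genes. The rule for named genes was all kept or 1.5-fold different collagen genes, with others summarised, the 3 largest absolute differences per kept pathway list, and Ctnnb1; other names were added after their values were seen. Collagen classes, 7 pathway lists (104 of 109 entries measured) and 8 marker lists were chosen with earlier results of these data known. Lum, Dcn and Fap are on both a pathway and the fibroblast marker list, and Sox9 and Comp on both a pathway and the chondrocyte list. Alternatives were other level filters, the mean of probe sets, median or lowess centring (span 0.3) and symbols as annotated. The steps were tested on simulated data. Python 3.11.15, pandas 2.3.3 and statsmodels 0.14.6 were used.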

Additional observations from a re-analysis of the deposited data

How the results depend on the processing

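No paired analysis was possible because there is 1 array per group, and for the same reason no replicate could be left out. Of the 33 kept collagen genes, 20 were higher and 11 lower under every alternative that kept them. Col26a1 and Col9a2, both near 0, took both signs, and no gene's difference moved by more than 0.042. A level filter cannot change a gene's difference, and the mean of probe sets can change only that of Col6a5 and Col6a6. The steady signs therefore reflect little more than the small shifts made by centring, and say nothing of replicate error. The members' median stayed between 0.0013 and 0.087. With the level filter at the 75th percentile, which left 15 collagen genes, Col8a2 was no longer among them, so the count at least 1.5-fold higher was 0. The count higher by any amount was 8 of 15, against 44.1% of all genes so kept. The FACIT median was then 0.23 and the network median, that of Col8a1 alone, was -0.57. Without a level filter the network median was -0.25, that of Col10a1, against 0.23 over Col8a1 and Col8a2, and the receptor median was -0.092. Median centring, which by construction sets the median of all kept genes to 0, gave 22 of 33 members higher by any amount. With the mean of probe sets, Col6a6 fell under the filter and 32 members were kept. Symbols as annotated gave the same members and values.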

Other observations

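The 11 collagen genes under the level filter had differences from -0.25 (Col10a1) to 0.31 (Col15a1), with 5 higher, 4 lower and 2 exactly equal on the arrays (Col20a1 and Col6a5). Exact equality to the last deposited digit was found for 1880 of the 28944 probe sets. How such equal values arose is not stated in the sources used here.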
